A study of Mus musculus with 6 samples.

Results

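The genes described here are 41 splicing regulators: the SR proteins and their Tra2 relatives, the kinases that phosphorylate them, other proteins rich in arginine and serine, and several factors that choose splice sites. They were picked by gene symbol, and all 41 were present among the 24346 genes of the deposited table. The set was drawn up with earlier results of the same comparison of busulfan with DMSO known. The values below therefore describe the members, and no count of members is used as evidence.

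The tissue was labelled IS-caput epididymis: the initial segment and caput, the first stretch of the duct to receive sperm and fluid from the testis. All mice were wild-type and 12 weeks old. The 3 mRNA libraries of one group followed intraperitoneal injection of busulfan, an alkylating drug that depletes testicular germ cells, and the 3 of the other group followed injection of dimethyl sulfoxide (DMSO) by the same route. Dose and interval before collection are not stated. The labels do not tie a replicate number to a separate mouse, so the spread between libraries, and any p-value built on it, may be technical. The duct was sequenced in bulk, so fewer cells of a type and less RNA per cell cannot be told apart, nor can an action of the drug on the duct and one through the testis.

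Splicing removes introns from RNA in the nucleus. SR proteins carry an RNA-binding domain and a tail of alternating arginine and serine (the RS domain), bind exons and recruit the spliceosome, while many hnRNP proteins bind nearby and oppose them. SRPK kinases phosphorylate the tail in the cytoplasm, which directs SR proteins into the nucleus, and CLK kinases phosphorylate it further in the nucleus and release the proteins from nuclear speckles, the compartments where splicing factors are stored. Many of these genes tune their own output by retaining an intron or including an exon that sends the RNA to decay. The deposited values are given per gene and do not separate such isoforms.

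Promoter sequence is printed for 5 members, so that 4 genes that rose can be set beside Srsf9, which fell. The 250 bases before the RefSeq start site on GRCm38.p6 (the assembly also called mm10) are given along the gene's own strand, the plus strand for all 5. Capitals mark matches, on either strand, to the 9 motifs described after the sequences; the capitals that end Clk4 begin a match that runs past the printed bases.
Leng8, chr7:4136806-4137055: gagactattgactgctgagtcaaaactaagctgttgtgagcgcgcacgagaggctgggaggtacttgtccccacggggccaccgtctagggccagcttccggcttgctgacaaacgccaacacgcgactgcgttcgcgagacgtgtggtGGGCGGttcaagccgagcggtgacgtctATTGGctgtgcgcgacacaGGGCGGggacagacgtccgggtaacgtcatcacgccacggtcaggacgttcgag
Rsrp1, chr4:134923375-134923624: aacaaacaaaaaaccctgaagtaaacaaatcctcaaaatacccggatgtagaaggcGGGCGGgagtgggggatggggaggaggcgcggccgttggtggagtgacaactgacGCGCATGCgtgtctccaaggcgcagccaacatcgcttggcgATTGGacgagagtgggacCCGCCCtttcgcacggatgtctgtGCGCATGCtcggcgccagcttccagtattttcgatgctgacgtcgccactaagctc
Srsf5, chr12:80945249-80945498: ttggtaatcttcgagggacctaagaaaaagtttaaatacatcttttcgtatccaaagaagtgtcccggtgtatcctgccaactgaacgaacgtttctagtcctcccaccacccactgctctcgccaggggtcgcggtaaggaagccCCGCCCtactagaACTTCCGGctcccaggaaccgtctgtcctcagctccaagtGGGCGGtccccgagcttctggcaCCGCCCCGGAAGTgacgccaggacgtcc
Clk4, chr11:51262864-51263113: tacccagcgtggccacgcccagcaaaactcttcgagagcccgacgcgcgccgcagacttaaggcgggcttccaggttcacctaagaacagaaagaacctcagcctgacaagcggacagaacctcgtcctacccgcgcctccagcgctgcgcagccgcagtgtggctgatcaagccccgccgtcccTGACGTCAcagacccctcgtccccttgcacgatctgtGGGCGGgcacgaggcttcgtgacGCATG
Srsf9, chr5:115326927-115327176: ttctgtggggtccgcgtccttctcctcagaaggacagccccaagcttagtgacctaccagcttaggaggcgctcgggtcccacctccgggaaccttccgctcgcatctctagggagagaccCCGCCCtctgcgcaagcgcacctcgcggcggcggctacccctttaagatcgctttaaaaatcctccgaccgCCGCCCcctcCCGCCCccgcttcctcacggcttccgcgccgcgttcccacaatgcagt

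RefSeq promoters of 300 bases, which include 50 after the start site, were at hand for 34 members. These were 12 of the members that rose, 2 of those that fell and 20 of those that passed neither way. The GC box GGGCGG, bound by SP1 and related factors, was held by 23 of the 34 members, against 35.6% of all 32817 promoters of that length. It was held by 10 of the 12 that rose, 1 of the 2 that fell and 12 of the remaining 20. The NF-Y box CCAAT was held by 18 members (37.4% of all promoters), and the YY1 site GCCATNTTG by 6 (2.5%). The NRF1 core GCGCATGC was found in Srsf7, Clk4, Rsrp1, Srrm1 (2.71%), and the ETS site CCGGAAGT in Srsf4, Srsf5, Ddx39b (3.89%). The cAMP response element TGACGTCA was found in Tra2a and Clk4 (1.79%). The palindrome CTCGCGAG was held by 3 members (0.92%), the E-box CACGTG by 1 (7.15%) and the TATA box TATAAA by 4 (13.6%). No motif contains another, and a match describes letters only. The full set of promoters was not matched to the members for GC content or level. The RefSeq start sites used for Luc7l2 and Rbm25 lay 4258 and 3458 bases from their GENCODE starts.

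Levels are given in FPKM, fragment numbers scaled for transcript length and sequencing depth, which the authors normalized further. All 41 members reached a mean of at least 1 FPKM, the minimum for testing, and their means ran from 5.92 to 216 FPKM. With DMSO the highest levels were those of Hnrnpk (233 ± 4.29 FPKM, mean ± SD, n = 3), Srsf5 (149 ± 7.23 FPKM) and Rsrp1 (107 ± 22.4 FPKM). Hnrnpk and Srsf5 stood apart from each other and from the rest, while the libraries of Rsrp1 overlapped those of Hnrnpl. With busulfan the order was Srsf5 (234 ± 31.8 FPKM), Rsrp1 (216 ± 23.9 FPKM) and Hnrnpk (199.7 ± 4.89 FPKM), and these 3 overlapped. Leng8 moved from place 31 of the 41 to place 12. Srsf4 was lowest in both groups, at 5.61 ± 0.418 and 6.23 ± 0.233 FPKM.

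Changes are busulfan minus DMSO on log2(FPKM + 1), a scale that understates changes of low genes. They come from a limma fit over all 12848 tested genes, with Benjamini-Hochberg adjustment over all of them and a threshold of 0.05. By this rule 16 members rose, 3 fell and 22 did not pass, where 42.8% of all tested genes were called (20.8% higher and 22.1% lower). The median log2 change was 0.13 over the members and -0.00338 over all tested genes. Busulfan libraries lay wholly above DMSO libraries for 21 members and wholly below for 7 (26.9% and 27.7% of all tested genes). The groups overlapped for the other 13.

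By role, 6 of 12 SR protein and Tra2 genes, 3 of 6 kinase genes and 7 of 12 genes of RS-rich speckle and coactivator proteins rose. None of the 11 other members did. The split depends on the scale: rescaling each library to a sum of 1000000 FPKM moves the median of all tested genes to 0.14 and gives 27 members higher and 2 lower, and 74.2% of all calls are then higher, against 48.5% as deposited. Summed FPKM were 707219 to 732495 with DMSO and 625087 to 666662 with busulfan. Median-of-ratios factors between libraries ran from 0.997 to 1.006.

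**Figure D1:**
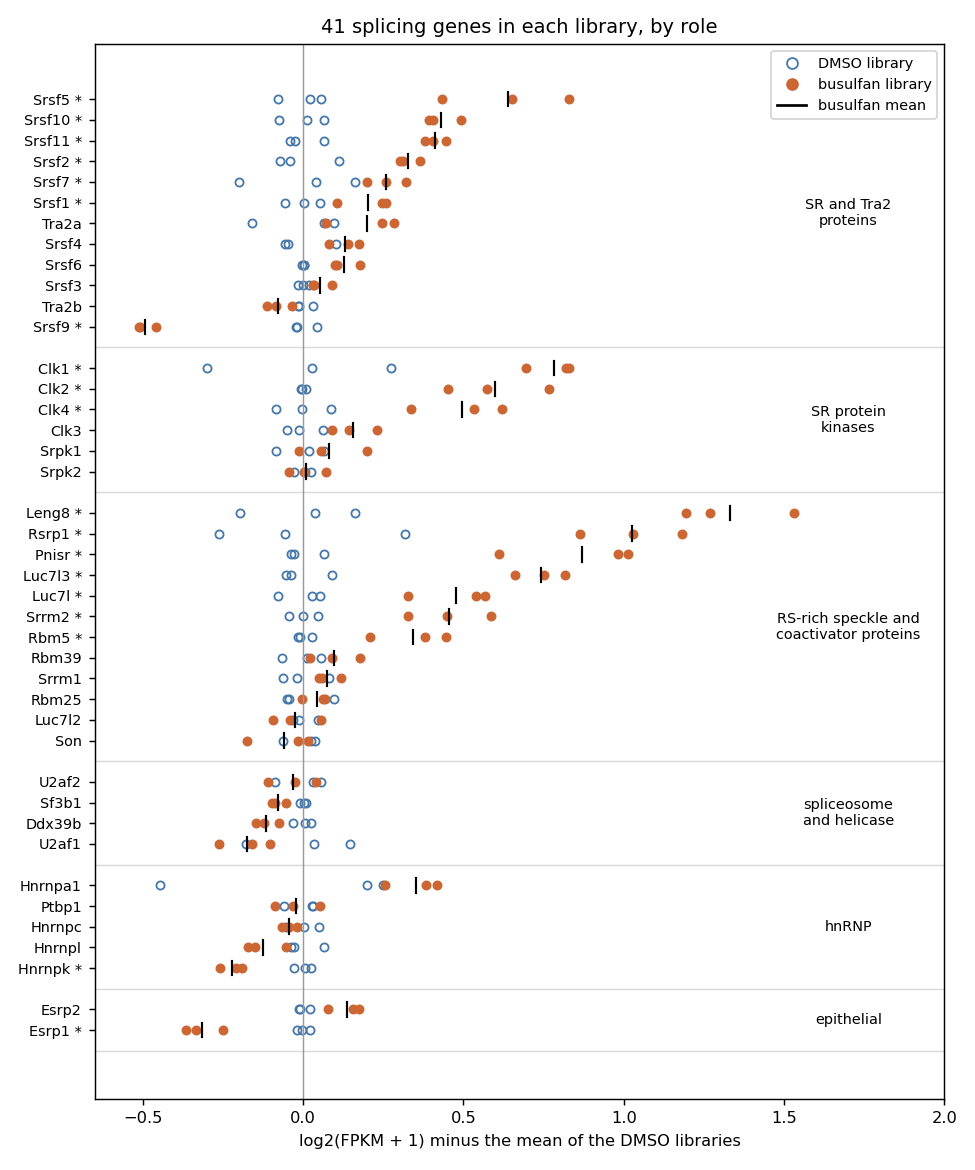
Each of the 41 genes in each library, as log2(FPKM + 1) minus the mean of the 3 DMSO libraries, grouped by role. Open and filled circles are DMSO and busulfan libraries, black ticks the busulfan mean, and a star marks the 19 genes past the threshold. Leng8 (1.33) and Rsrp1 (1.02) stand farthest to the right and Srsf9 (-0.49) farthest to the left.

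Leng8, which encodes a protein with a PCI domain, is one of the RS-rich speckle and coactivator group and had the largest change of all members. Leng8 (NCBI gene 232798, chromosome 7, 4137039 to 4148177 on GRCm38, as are all positions below) stood at 26.7, 24.4 and 20.6 FPKM with DMSO and 70.5, 58.7 and 55.7 FPKM with busulfan. The gap between the groups was wider than the range of either, and the level rose 2.58-fold (log2 change 1.33, 95% interval 1.08 to 1.59). Rsrp1 (NCBI gene 27981, chromosome 4, 134923592 to 134927671), which encodes a protein rich in arginine and serine, stood at 131, 101 and 87.5 FPKM with DMSO and 239.6, 215 and 192 FPKM with busulfan. Its libraries were spread widely in both groups without overlap, and it rose 2.02-fold (log2 change 1.02, interval 0.70 to 1.35).

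Pnisr (NCBI gene 66625, chromosome 4, 21847583 to 21876475), whose product binds the speckle protein pinin, stood at 14.3, 13.3 and 13.2 FPKM with DMSO and 28.5, 27.9 and 21.3 FPKM with busulfan. It rose 1.9-fold (log2 change 0.87, interval 0.63 to 1.11), and busulfan replicate 3 was lowest in its group. The LUC7-like genes, whose yeast relative is part of the U1 snRNP that recognises the start of an intron, were called in 2 of 3 cases. Luc7l3 rose from 21.4 ± 1.24 to 36.5 ± 2 FPKM and Luc7l from 15.6 ± 0.779 to 22.1 ± 2.05 FPKM. Luc7l2 stood at 34.6 ± 1.03 and 33.9 ± 1.86 FPKM (log2 change -0.03, interval -0.16 to 0.10). The ratio of Luc7l3 to Luc7l2 was 0.638, 0.601 and 0.616 with DMSO and 1.07, 1.09 and 1.06 with busulfan. A single factor per library does not alter such ratios, but here and below they restate the members' own levels and are no further evidence.

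Srrm2, which encodes a scaffold of nuclear speckles, rose 1.38-fold to 58.6 ± 5.37 FPKM. Son, the gene of the other main scaffold, stood at 29.8 ± 1.14 and 28.6 ± 2.06 FPKM and did not pass (log2 change -0.06, interval -0.21 to 0.09). Rbm5, an RNA-binding regulator of exon choice, rose 1.28-fold to 31.2 ± 2.66 FPKM. The splicing coactivator gene Srrm1 and the RNA-binding protein genes Rbm25 and Rbm39 did not pass, with log2 changes of 0.08, 0.04 and 0.10.

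**Figure D2:**
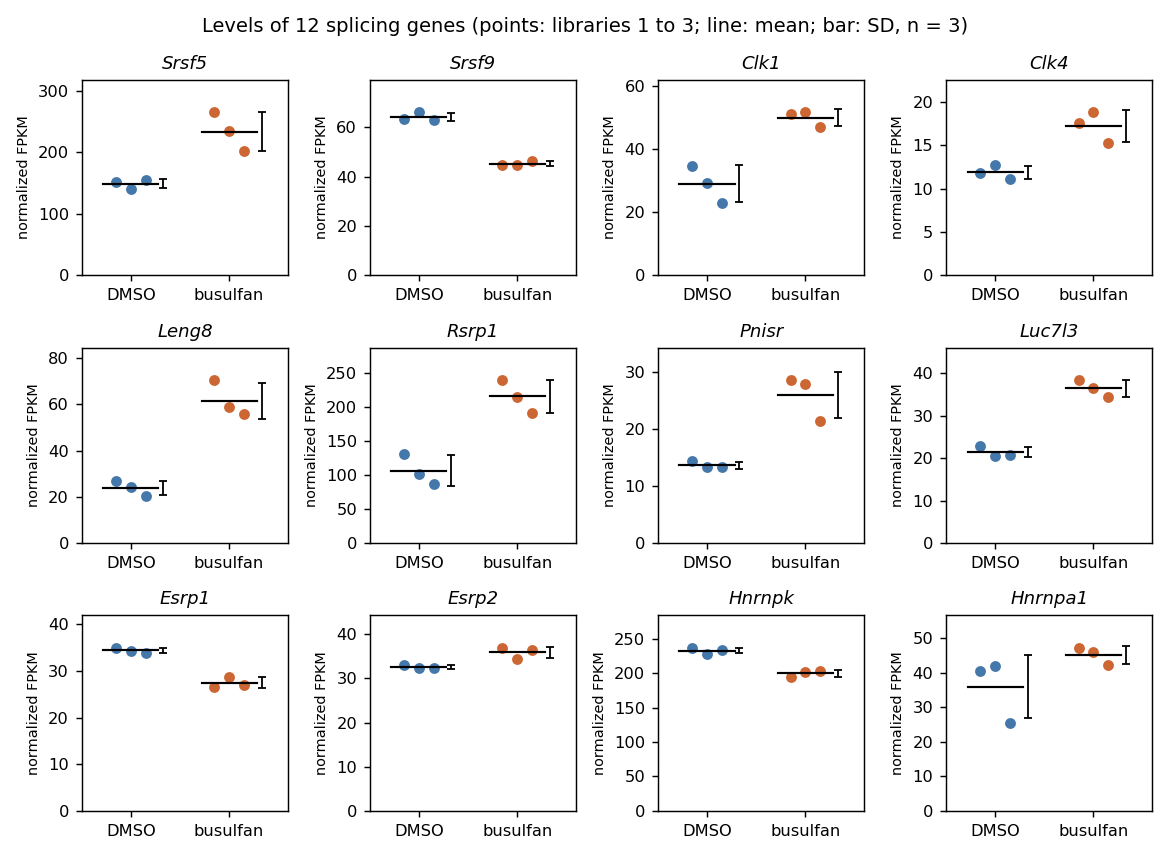
Normalized FPKM of 12 members with DMSO and busulfan, each axis starting at 0. Points are replicates 1 to 3 from left to right, lines are means and bars are SD (n = 3). Leng8, Rsrp1, Pnisr, Luc7l3 and Clk1 lie higher with busulfan without overlap, and Srsf9, Esrp1 and Hnrnpk lie lower.

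Among the kinases, Clk1, Clk2 and Clk4 rose and the SRPK genes did not pass. Clk1 (NCBI gene 12747, chromosome 1, 58410189 to 58424066) stood at 34.8, 29.2 and 23 FPKM with DMSO and 51.3, 51.6 and 46.9 FPKM with busulfan. The DMSO libraries were the more widely spread, the groups did not overlap, and the level rose 1.72-fold (log2 change 0.78, interval 0.49 to 1.08). Clk2 (NCBI gene 12748, chromosome 3, 89164795 to 89176921) stood at 9.59, 9.63 and 9.72 FPKM with DMSO and 17.1, 13.6 and 14.8 FPKM with busulfan, a 1.57-fold rise with most of the spread in the busulfan group. Clk4 (NCBI gene 12750, chromosome 11, 51261730 to 51281766), whose promoter is printed above, stood at 11.8, 12.7 and 11.1 FPKM with DMSO and 17.6, 18.8 and 15.2 FPKM with busulfan, a 1.45-fold rise without overlap.

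Clk3 stood at 20.1 ± 0.849 and 22.5 ± 1.18 FPKM and did not pass (log2 change 0.15, interval 0.02 to 0.29). Its share of the summed FPKM of the 4 Clk genes was 28.6% ± 2.81 with DMSO and 21.5% ± 1.34 with busulfan. That of Clk1 was 40.8% ± 4.98 and 47.6% ± 0.339, while those of Clk2 and Clk4 overlapped between the groups. Srpk1 and Srpk2, the cytoplasmic kinases, had log2 changes of 0.08 (interval -0.09 to 0.25) and 0.01 (interval -0.13 to 0.15). The ratio of summed FPKM of the 4 Clk genes to the 2 Srpk genes was 3.14, 3.06 and 2.87 with DMSO and 4.54, 4.26 and 4.15 with busulfan.

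The SR protein genes moved in both directions. Srsf5 (NCBI gene 20384, chromosome 12, 80945504 to 80950507), an activator of exon inclusion, stood at 151, 141 and 155 FPKM with DMSO and 265, 235 and 202 FPKM with busulfan. It rose 1.57-fold (log2 change 0.64, interval 0.42 to 0.86) and had the highest level of the family in every library. Srsf9 (NCBI gene 108014, chromosome 5, 115327177 to 115333080), a member with a short RS domain, stood at 63.3, 66.1 and 63.2 FPKM with DMSO and 44.8, 44.7 and 46.4 FPKM with busulfan. Both groups were tight, and it fell 1.42-fold (log2 change -0.49, interval -0.60 to -0.39).

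As shares of the summed FPKM of the 12 SR protein and Tra2 genes, Srsf5 went from 23.8% ± 0.547 to 30.9% ± 2.81 and Srsf9 from 10.2% ± 0.558 to 6.02% ± 0.395. The ratio of Srsf5 to Srsf9 was 2.39, 2.13 and 2.45 with DMSO and 5.92, 5.25 and 4.35 with busulfan. Srsf10 (NCBI gene 14105, chromosome 4, 135855747 to 135869908), which represses splicing when dephosphorylated, stood at 35.4, 33.2 and 36.7 FPKM with DMSO and 49.8, 46.8 and 46.3 FPKM with busulfan, a 1.36-fold rise without overlap. Srsf11 rose 1.34-fold, from 26.5 ± 1.08 to 35.6 ± 0.861 FPKM. Srsf2, which binds exonic enhancers, rose 1.25-fold to 98.5 ± 2.37 FPKM; it lies wholly within Mettl23 on the opposite strand (10.9 and 9.94 FPKM), and the strand setting of the counting is not stated.

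The calls for 2 further SR proteins were lost on omitting single libraries. Srsf1, the founding member of the family, stood at 33 ± 1.28 and 38.2 ± 2.25 FPKM (log2 change 0.20). Its call did not survive the omission of DMSO replicate 1 or 2 or of busulfan replicate 1 or 2 (0.18 to 0.20). Srsf7 stood at 28.1 ± 3.62 and 33.7 ± 1.46 FPKM (log2 change 0.26), and its call survived the omission of no library other than DMSO replicate 3 (0.16 to 0.29 otherwise). Srsf3, Srsf4, Srsf6, Tra2a and Tra2b did not pass, with log2 changes of 0.05, 0.13, 0.13, 0.20 and -0.08. Tra2a and Tra2b activate exons with purine-rich elements, and Tra2a was called higher when busulfan replicate 3 was omitted (0.26). The ratio of Tra2a to Tra2b was 0.456, 0.379 and 0.432 with DMSO and 0.544, 0.548 and 0.455 with busulfan, with overlap.

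None of the 4 members grouped as spliceosome and helicase genes passed. U2af2 (NCBI gene 22185, chromosome 7, 5062143 to 5079938), which binds the pyrimidine-rich tract before an exon, stood at 90.9, 89.4 and 82.3 FPKM with DMSO and 80.9, 85.9 and 89.9 FPKM with busulfan, and the groups overlapped. Its partner gene U2af1 had a log2 change of -0.18 (interval -0.37 to 0.02), and it was called lower when DMSO replicate 3 was omitted (-0.27). Sf3b1, whose product holds the branch point, and the helicase gene Ddx39b had log2 changes of -0.08 (interval -0.18 to 0.02) and -0.12 (interval -0.22 to -0.01).

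Of the hnRNP genes, Hnrnpk (NCBI gene 15387, chromosome 13, 58391142 to 58403343), which encodes a protein that binds C-rich RNA, stood at 237, 228 and 234 FPKM with DMSO and 194, 201 and 204 FPKM with busulfan. It fell 1.17-fold without overlap (log2 change -0.22, interval -0.32 to -0.12), and the call was lost after quantile normalization (-0.08) and after rescaling to a common sum (-0.06). Hnrnpl, Hnrnpc and Ptbp1, the last a repressor that binds pyrimidine tracts, did not pass, with log2 changes of -0.13, -0.04 and -0.02. Hnrnpl was called lower when busulfan replicate 3 was omitted (-0.16). Hnrnpa1, a classical opponent of Srsf1, stood at 40.4, 41.9 and 25.5 FPKM with DMSO and 47.2, 46 and 42.1 FPKM with busulfan. DMSO replicate 3 alone was low: the log2 change of 0.35 (interval -0.03 to 0.74) did not pass and was 0.13 without that library.

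Esrp1 and Esrp2 encode regulators that set epithelial exon choices, as in the FGF receptor gene Fgfr2. Esrp1 (NCBI gene 207920, chromosome 4, 11331933 to 11386783) stood at 35, 34.4 and 33.9 FPKM with DMSO and 26.5, 28.8 and 27.1 FPKM with busulfan. It fell 1.25-fold without overlap (log2 change -0.32, interval -0.43 to -0.20). Esrp2 (NCBI gene 77411, chromosome 8, 106130319 to 106136974) stood at 33.1, 32.3 and 32.4 FPKM with DMSO and 36.9, 34.4 and 36.4 FPKM with busulfan. Its busulfan libraries all lay above its DMSO libraries, but the log2 change of 0.14 (interval 0.02 to 0.25) did not pass.

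The ratio of Esrp1 to Esrp2 was 1.06, 1.06 and 1.05 with DMSO and 0.718, 0.836 and 0.745 with busulfan. The gene 1810019D21Rik covers 23.7% of Esrp2 on the opposite strand and stood at 31.8 FPKM with DMSO and 54.6 FPKM with busulfan. The libraries were stranded, but whether the counting used the strand is not stated, so reads of the pair may have been mixed and the value of Esrp2 is uncertain. Genes without deposited values also cover 20.1% of Esrp1, 22.5% of Luc7l and 41.5% of Ptbp1 on the opposite strand. The same doubt applies to those members. Of 8 epithelial markers, 6 were lower (among them Epcam and Krt8) and 2 higher, and they summed to 1438 to 1459 FPKM with DMSO and 1414 to 1475 FPKM with busulfan; their part in the fall of Esrp1 was not tested.

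Some members have near copies in the genome between which the authors' counting could have split reads. Of the 50-base windows of the longest coding transcript in GENCODE M21, some were shared with another gene for 19 members. Over 25% were shared for U2af1 (59.4%), Hnrnpa1 (46.4%), Hnrnpk (34.5%), Srsf3 (31.5%), U2af2 (29.9%) and Srsf5 (27.8%), whose levels are uncertain. None were shared for Leng8, Rsrp1, Pnisr, Luc7l3, Clk1, Clk2, Clk4, Srsf9 or Esrp1.

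Annotated transcripts did not enter the choice of members. In GENCODE M21, 36 of the 41 members have a transcript with a retained intron and 34 have one marked for nonsense-mediated decay, against 56.9% and 27.1% of 12368 tested genes placed on 1 gene model. Such transcripts are annotated for 14 and 13 of the 16 members that rose, and for 21 and 19 of the 22 that did not pass. Of the 3 members that fell, 1 and 2 have them. The tested genes were not matched to the members for level or number of annotated transcripts. The levels of such transcripts were not measured, since the table has no value per transcript.

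Among the members that rose, the busulfan libraries often stood in the same order. Busulfan replicate 3 was lowest in its group for 13 of the 16 and busulfan replicate 1 highest for 11. Among the 3 members that fell, busulfan replicate 3 was lowest for 0 and highest for 2. How often all tested genes, or the members that did not pass, had this order was not counted. The DMSO libraries were more mixed: replicates 1, 2 and 3 were lowest for 1, 6 and 9 of the 16 and highest for 7, 4 and 5. The RS-rich members summed to 498, 464 and 436 FPKM with DMSO and 733, 676 and 622 FPKM with busulfan. A list of 12 noncoding RNAs, named nuclear-retained in the figures, had the same order, with sums of 209.6, 169 and 167 FPKM and 397, 377 and 329 FPKM. The busulfan order alone was shared by the endothelial, fibroblast (300, 275 and 207 FPKM), smooth muscle, leukocyte and immediate early lists described below. Principal cell (55451, 57895 and 59241 FPKM), epithelial, basal cell, sperm and heat shock lists had the opposite busulfan order. The noncoding list also holds Gas5 and Snhg genes, hosts of small nucleolar RNAs, and nuclear retention was not measured. Of its 10 tested RNAs, 5 rose (Neat1, Malat1, Gas5, Snhg8 and Snhg11) and 0 fell by limma (20.8% and 22.1% of all tested genes). The other 5 were not past the threshold, and the median was 0.42 on the log2 scale. Snhg11 averaged 1.001 FPKM over the 6 libraries and 0.347 FPKM with DMSO. It passed the minimum of 1 FPKM only through its busulfan values, so its call is no evidence.

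Neat1, the RNA scaffold of paraspeckles, stood at 63.7, 55.2 and 43.6 FPKM with DMSO and 226, 191 and 176 FPKM with busulfan (limma adjusted p = 2.41e-05). Malat1, an RNA of nuclear speckles, stood at 11.9, 10.5 and 13.2 FPKM with DMSO and 40.0, 42.6 and 26.6 FPKM with busulfan (limma adjusted p = 0.000196). Both groups were apart for each, and busulfan replicate 3 was again lowest. The libraries were of poly(A) RNA, and how fully Neat1 and Malat1 were captured was not measured. Snhg11, a low-level host gene of small nucleolar RNAs, stood at 0.528, 0.351 and 0.163 FPKM with DMSO and 1.5, 1.73 and 1.73 FPKM with busulfan. The part of RNA quality, or of the share of nuclear RNA, in the rise of the members was not tested.

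Of 9 immediate early genes, which respond to handling of tissue, Fosl2 rose 1.81-fold, Ier2 fell 1.95-fold and Ier3 3.69-fold. The other 6 did not pass. Of 11 heat shock genes 3 rose, among them the near-identical Hspa1a (1.51-fold) and Hspa1b (1.5-fold), and 5 fell, among them Hsp90aa1 (1.42-fold).

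**Figure D3:**
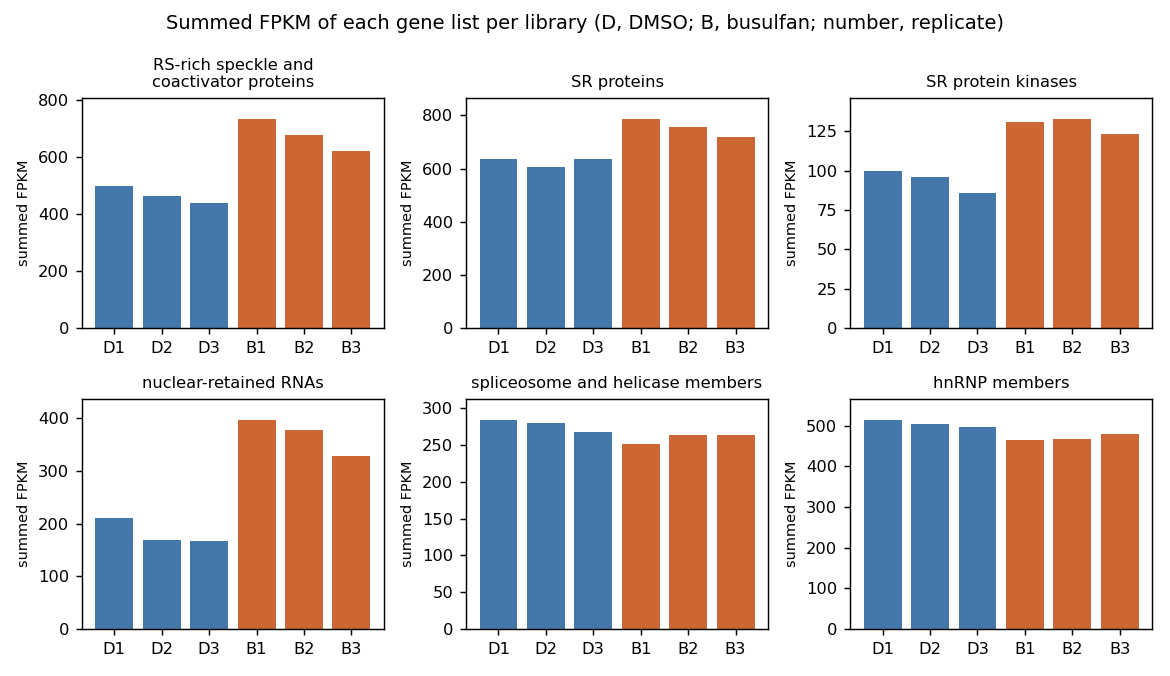
Summed FPKM in each library of 5 role groups of members and of the list named nuclear-retained RNAs, which includes hosts of small nucleolar RNAs. Axes start at 0 (D is DMSO, B is busulfan, and the number is the replicate). In the RS-rich and nuclear-retained panels replicate 1 is highest and replicate 3 lowest in both groups, and the hnRNP members sum to 497 to 515 FPKM with DMSO and 466 to 479.8 FPKM with busulfan.

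Markers of other cells of the tissue also moved. Of 7 endothelial markers 5 were lower, and the list summed to 89.2 to 94.3 FPKM with DMSO and 63.8 to 70.1 FPKM with busulfan. Of 6 fibroblast markers 4 were lower (358 to 455 FPKM with DMSO and 207 to 300.3 FPKM with busulfan). None of 5 smooth muscle markers passed (497 to 549 FPKM with DMSO and 476 to 575 FPKM with busulfan), and of 5 leukocyte markers 1 was higher and 1 lower (93.3 to 101 FPKM with DMSO and 90.1 to 124 FPKM with busulfan). Of 6 sperm markers 4 were lower and 1 higher (46.6 to 65.3 FPKM with DMSO and 21.2 to 48.1 FPKM with busulfan). Of 10 markers of principal cells, the main epithelial cells of the duct, 8 were lower and 2 higher (83102 to 87302 FPKM with DMSO and 55451 to 59241 FPKM with busulfan). That sum hides a wide range: Lcn8 fell from 12280 to 26.5 FPKM and Defb48 from 7778 to 1.81 FPKM. The abundant Gpx5 fell 1.23-fold, and the 2 that rose were Clu (2.08-fold) and Lcn5 (1.96-fold). Of 4 clear cell markers 2 were higher and 1 lower (102 to 109 FPKM with DMSO and 123 to 131 FPKM with busulfan), and of 5 basal cell markers 2 were higher and 2 lower (160.1 to 175 FPKM with DMSO and 174 to 195 FPKM with busulfan). No marker on these lists was at 0 in every library, and their part in the changes of the splicing genes was not tested.

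The remaining splicing machinery was read from 10 further lists, of which 171 genes were tested. Of these 42 (24.6%) rose and 17 (9.94%) fell, and the median log2 change was 0.02. Of all tested genes 20.8% rose and 22.1% fell, which is the background for each list count below. Of 30 other genes of RS-domain and speckle proteins, 12 rose and 1 fell (median 0.09). The helicase gene Ddx17 stood at 96.7, 83.9 and 80.4 FPKM with DMSO and 204, 191 and 162 FPKM with busulfan, a 2.13-fold rise (limma adjusted p = 6.59e-05). Arglu1, whose product is rich in arginine and glutamate, rose 1.83-fold to 41.8 ± 5.26 FPKM (limma adjusted p = 0.000738), and the cyclin gene Ccnl2 rose 1.7-fold to 30.9 ± 1.51 FPKM (limma adjusted p = 0.000175).

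Of 27 other hnRNP and FET genes 10 rose and 2 fell (median 0.11). Ptbp2, the paralog of Ptbp1 best known from neurons, rose 1.7-fold (limma adjusted p = 0.000385), Hnrnph3 1.56-fold (limma adjusted p = 0.000194) and Hnrnpdl 1.44-fold (limma adjusted p = 0.000682). Of 13 tissue-restricted regulators, 4 rose and 2 fell. Mbnl3 stood at 17.1 ± 4.3 and 31 ± 7.61 FPKM, but its call (log2 change 0.82) was lost on omitting DMSO replicate 2, DMSO replicate 3 or busulfan replicate 2 (0.69 to 0.76). Celf4 rose 2.19-fold to 2.66 ± 0.653 FPKM, and Rbfox3 fell 1.49-fold to 11.6 ± 1.05 FPKM.

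Of 19 genes of the exon junction complex and mRNA export, 4 rose and 1 fell. Nxf1, the main export receptor for mRNA, stood at 30.3, 28.2 and 28.7 FPKM with DMSO and 54.3, 48.7 and 46.4 FPKM with busulfan (limma adjusted p = 5.96e-05). Thoc2, of the THO complex, rose 1.51-fold and Magohb, of the exon junction complex, 1.35-fold. Of 10 genes of nonsense-mediated decay, Upf3b and the kinase gene Smg1 rose 1.42-fold and 1.41-fold, and Smg5 fell 1.22-fold. The call for Smg5 (log2 change -0.27) was lost after rescaling to a common sum (-0.12).

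Of 8 minor spliceosome genes 3 rose, Rnpc3 1.46-fold, Pdcd7 1.29-fold and Snrnp48 1.25-fold. The call for Pdcd7 (log2 change 0.31) was lost on omitting DMSO replicate 2, DMSO replicate 3 or busulfan replicate 3 (0.23 to 0.28). Prpf4b was the only gene called of 6 tested on the list of other kinases acting on splicing factors. It rose 1.18-fold (log2 change 0.23), and its call was lost on omitting DMSO replicate 2 or 3 or busulfan replicate 1 or 2 (0.18 to 0.23).

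In the core of the spliceosome, 3 of 16 U1 and U2 snRNP genes rose and 5 fell (median -0.10). Sf3b3, a subunit gene of the same complex as Sf3b1, stood at 32.2, 32.9 and 31.5 FPKM with DMSO and 22.2, 21.7 and 22.5 FPKM with busulfan, a 1.46-fold fall (limma adjusted p = 7.28e-05). Snrnp70, which encodes a U1 protein, rose 1.41-fold to 92.3 ± 3.66 FPKM (limma adjusted p = 0.000328), and Phf5a fell 1.34-fold. Of 28 genes of the tri-snRNP and catalytic complexes 2 rose, Usp39 (1.24-fold) among them, and 4 fell, among them Prpf6 (1.22-fold) and Plrg1 (1.2-fold). The call for Plrg1 (log2 change -0.26) was lost on omitting DMSO replicate 2, DMSO replicate 3 or busulfan replicate 1 (-0.25 to -0.20), after quantile normalization (-0.18) and after rescaling to a common sum (-0.10). That for Prpf6 (log2 change -0.28) was lost after rescaling to a common sum (-0.13).

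Of 14 Sm and LSm genes, Lsm6 rose 1.31-fold and Lsm3 fell 1.13-fold. The call for Lsm3 (log2 change -0.17) held on omitting DMSO replicate 3 or busulfan replicate 1 but no other library (-0.18 to -0.14 otherwise), and was lost after quantile normalization (-0.08) and after rescaling to a common sum (-0.02). Whether any of these lists differ from each other or from the members was not tested.

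**Figure D4:**
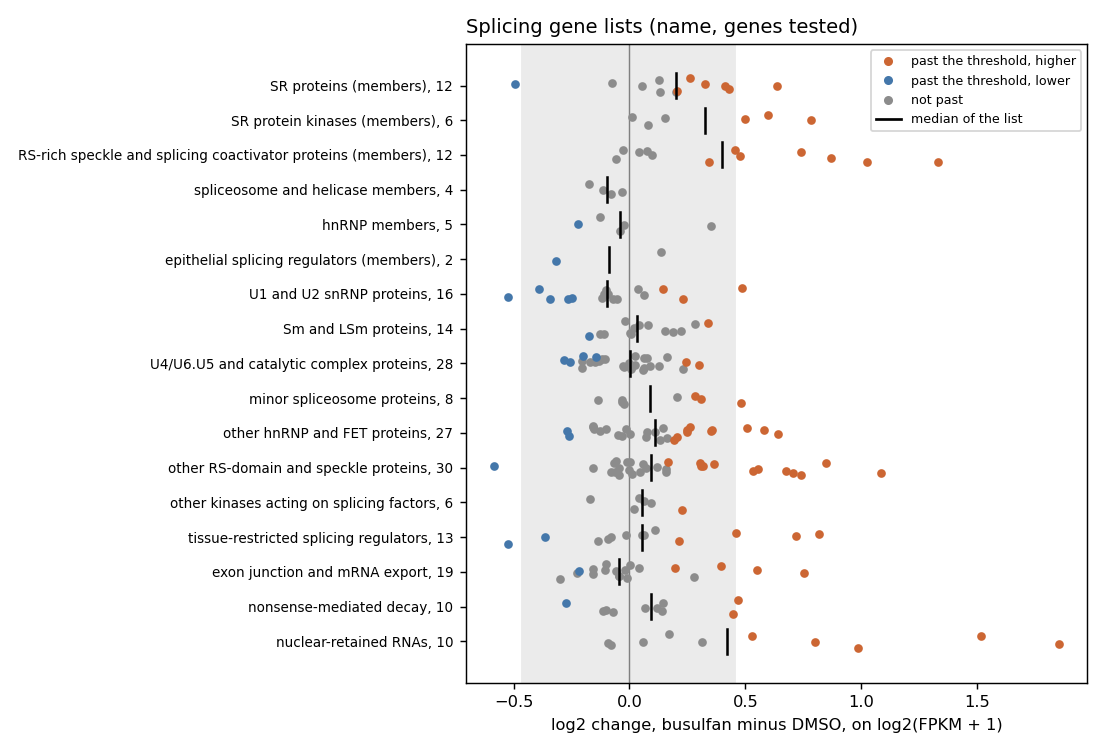
Log2 change of every tested gene in the 6 role groups of members, the 10 other splicing lists and the list named nuclear-retained RNAs. The number tested follows each name. Colours give the call, black ticks the list median, and the grey line and band the median and the 10th to 90th percentile of all tested genes (-0.46 to 0.46). Leng8 (1.33), Neat1 (1.85) and Ddx17 (1.08) lie far to the right of the band.

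Apart from Srsf1 and Srsf7, the members that rose kept their calls under each of the 15 alternatives tried, as did Srsf9 and Esrp1 among those that fell. Of the 22 members that did not pass, 13 were called under at least 1 alternative, Esrp2 and Srsf6 under 4 each. Srsf3, Srsf4, Clk3, Srpk1, Srrm1, Rbm25, Rbm39 and Hnrnpa1 were called only after quantile normalization or rescaling to a common sum. That rescaling raises the busulfan libraries by construction. Over all 15 alternatives the log2 change ranged from 1.23 to 1.5 for Leng8 and from -0.51 to -0.34 for Srsf9.

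**Figure D5:**
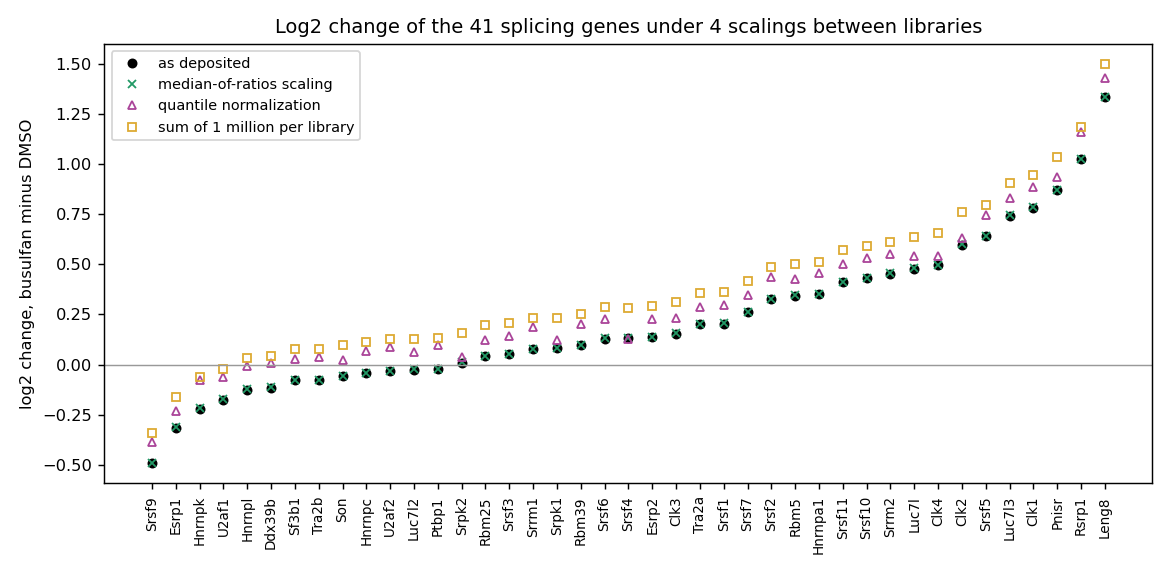
Log2 change of the 41 members, in order of size, on the deposited scale and with 3 other scalings between libraries. Rescaling to a common sum raises every member (median 0.29, against 0.13 as deposited), and Leng8 and Srsf9 are at the ends under all 4.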

How the data were processed

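Poly(A) RNA was measured in 6 libraries, 3 per group; extraction used RNeasy and library preparation TruSeq stranded mRNA, per the labels' protocols. The deposited table holds normalized FPKM for 24346 gene rows, per the file headers. The submitters' processing notes name TopHat2 2.1.1, Cufflinks 2.2.1 and mm10, without role or order. Normalization between libraries, annotation and strand setting are not stated. Depth is unknown apart from the spacing of low values, which gave rough depths of 0.92 to 1.08 relative to DMSO replicate 1, so no count test was run.

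The 12848 rows that averaged 1 FPKM or more entered limma 3.58.1 (R 4.3.3, trend on) as log2(FPKM + 1), two-sided, 3 libraries against 3, with Benjamini-Hochberg adjustment. The fit was tested on simulated data. Folds are ratios of mean FPKM. Members and lists were chosen with earlier results of these data known. Values in every library are given, per role, for up to 3 called members with the largest change and the most abundant member, and further for Hnrnpa1, chosen after its values were seen; other lists name up to 3 called genes. Ddx17, Nxf1 and Sf3b3 were given per library by choice. Gene positions are from GENCODE M21 (GRCm38) and promoters from RefSeq (GRCm38.p6). Plots used matplotlib 3.10.9 (Python 3.11.15). Alternatives were other pseudocounts, filters and scalings, limma without its trend, a replicate block, and omission of each library.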

Additional observations from a re-analysis of the deposited data

How the results depend on the processing

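Of all tested genes 2668 were higher and 2833 lower. Rescaling each library to a sum of 1000000 FPKM, which by construction raises the busulfan libraries, gave 4579 and 1595, with 27 members higher in place of 16, and 79 higher and 6 lower among the other splicing genes in place of 42 and 17. Quantile normalization gave 10 lower among the other splicing genes, and the cause was not tested. Omitting 1 library at a time gave 2095 to 2407 genes higher and 2299 to 2681 lower, 14 to 16 members higher and 3 to 4 lower, and 33 to 41 and 12 to 20 of the other splicing genes. Equal replicate numbers did not pair the libraries: deviations from the group means correlated across genes at -0.18, -0.02 and -0.17. With the replicate block 2204 genes were higher and 2423 lower, 14 members were higher and 3 lower, and 37 and 16 of the other splicing genes; Srsf1, Srsf7 and Pdcd7 lost their calls. No called gene among the 41 members and the 36 genes named by rule from the other splicing and accompanying lists changed direction; markers were not run. A member whose interval spans 0 may still differ by as much as that interval allows.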
